A study of Eonycteris spelaea and Mus musculus with 51 samples.

Results

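Lung of the cave nectar bat, Eonycteris spelaea, was profiled by bulk RNA sequencing in animals taken at the end of a heat shock that lasted 1 h, and was compared with lung of control animals taken at baseline. The comparison holds 6 of the 51 libraries of the series, 3 from heat animals and 3 from control animals, and every one of the 30017 rows of the bat count table was considered. 3 further lung libraries, from animals that had recovered for 4 h after such a heat shock, entered the same fit so that the spread between libraries was estimated from 9 lung libraries. The labels give no strain, age, sex or genotype for the bats and name no ambient or body temperature. The libraries are numbered replicates of a group, and nothing in the labels says more about the animals behind them, so p-values measure the spread between these libraries. Total counts were 16267370, 16064648 and 19412942 in heat, 18728902, 21671908 and 19008856 in recovery and 19440649, 20094152 and 9287883 in control libraries.

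In mammals a rise in cell temperature unfolds proteins and releases heat shock factor 1, a transcription factor that switches on chaperone genes. The chaperones of the HSP70 and HSP90 families refold damaged proteins with the help of co-chaperones, which set the pace of their ATP cycle. The lung adds a dense capillary endothelium, an epithelium that secretes surfactant and mucus, and many resident immune cells, and all of these contribute RNA to a bulk sample, in which fewer cells of a type and less RNA per cell cannot be told apart.

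The rows of the bat table carry several kinds of name. Human Ensembl gene identifiers start 18167 rows, numbers of non-coding RNAs name 10328, mouse Ensembl gene identifiers name 762, antisense names mark 564, and 196 have another name given by the authors, such as KDR_s10.435. The files and the reference tables used here give no gene symbol for the human identifiers, so those rows were tested but their genes were not analysed here by name. Of 766 symbols in lists of chaperone, stress, lung and blood cell genes, 1 was found as a name in the bat table, and of a panel of 27 heat-responsive genes 0 were. The genes described by name below are therefore those that the bat annotation placed on a mouse gene or that its authors named.

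The labelled tissue could be checked at few named rows. KDR_s10.435, named for the endothelial receptor of vascular endothelial growth factor, had a median of 164 CPM (counts scaled to the library total) over the 9 lung libraries, 46.9 CPM in muscle and 0 CPM in blood. Aox2, an aldehyde oxidase, had medians of 282 CPM in lung, 0.163 CPM in muscle and 1.9 CPM in blood. Cox8b, the muscle form of a cytochrome oxidase subunit, had a median of 6.22 CPM in lung and 124 CPM in muscle. The rows under Cxcl15 and Cbr2, both lung epithelial genes in mouse, had a median of 0 CPM in lung, muscle and blood.

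Control library 3 stood apart from the other 8 lung libraries. Across rows, its log2 CPM correlated with those of the other libraries at r = 0.862 to 0.903, while pairs among the other 8 gave 0.953 to 0.971. Numbered non-coding RNA rows held 6.49% of its counts, against 3.56%, 3.40% and 3.52% in heat libraries, 3.33%, 3.30% and 3.20% in recovery libraries and 3.46% and 3.68% in control libraries 1 and 2. In control library 3, 957 rows lay over 4 times above each of the other 8 libraries, and 764 of them were numbered non-coding RNAs. The same count was 1 to 10 rows in each of the other libraries. The common biological coefficient of variation was 0.343 over the 9 libraries and 0.258 without control library 3. No label marks this library as different, and it was kept in the comparison, with values without it given beside many of the results.

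**Figure D1:**
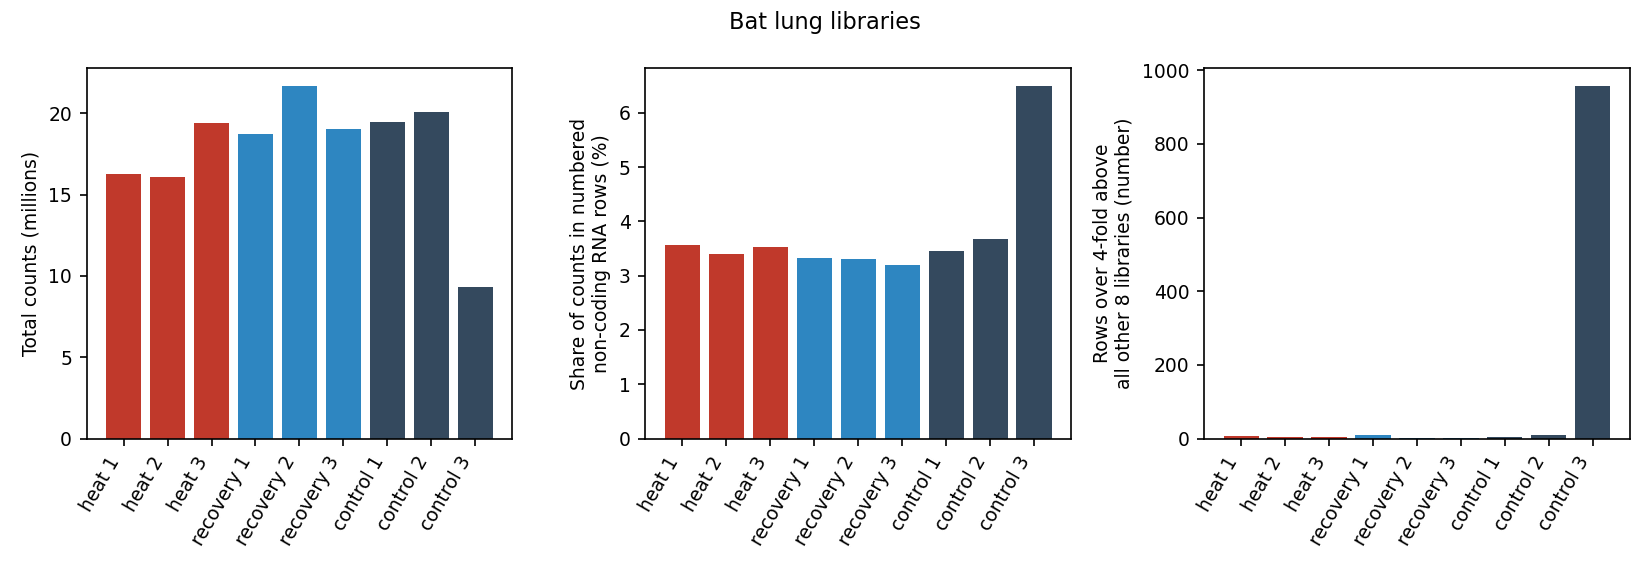
Total counts, share of counts in numbered non-coding RNA rows in percent and number of rows over 4 times above all other libraries, for each bat lung library (bars; red, heat; blue, recovery; dark grey, control). Control 3 is the shallowest library at 9287883 counts, has the largest share of non-coding RNA at 6.49% and holds 957 rows far above the other 8 libraries.

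No row was called between heat and control lung. Of 30017 rows, 19149 passed the filter on low counts, and edgeR's quasi-likelihood test called 0 at a Benjamini-Hochberg adjusted p under 0.05 (0% of rows tested), the smallest adjusted p being 0.572. At an unadjusted p under 0.05 there were 1662 rows, which is 8.68% of those tested. Of these, 450 were higher (2.35%) and 1212 were lower (6.33%) in heat than in control lung. The levels of the 3 heat libraries and the 3 control libraries did not overlap in 2016 rows (10.5%), with heat above control in 959 (5.01%) and below it in 1057 (5.52%). Limma-voom with sample quality weights also called 0 rows, and DESeq2 called 18, with 9 higher and 9 lower, of which 16 had human identifiers and 2 were numbered non-coding RNAs. Without control library 3, DESeq2 called 35, of which 12 were among the 18.

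Most log2 changes between heat and control lung were small. The log2 change was within 0.5 in 76.0% of the 19149 rows and in 86.3% of the 13772 rows that averaged 5 CPM or more. The median log2 change over all rows tested was -0.03. Changes past a log2 of 1 were more often negative, with 335 rows higher and 1737 lower. Without control library 3 this was 461 higher and 489 lower, and the median was 0.00. By level, 73 rows were higher and 405 lower in heat lung at an unadjusted p under 0.05 among the 5377 rows that averaged under 5 CPM, and 201 were higher and 681 lower among the 8943 rows at 5 to 50 CPM. Among the 4639 rows at 50 to 500 CPM the balance turned, with 165 higher and 123 lower, and among the 190 rows over 500 CPM 11 were higher and 3 lower. Without control library 3 the same 4 levels, low to high, had 118, 189, 126 and 10 rows higher and 152, 262, 86 and 1 lower.

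The excess of lower rows moved with control library 3. That library had the highest level of all 9 in 994 of the 1212 rows with a lower level in heat at an unadjusted p under 0.05 (82.0%), against 25.6% of all rows tested. It had the lowest level of all 9 in 250 of the 450 higher rows (55.6%), against 24.4% of all rows tested. Rows chosen by direction favour a control library at the extreme, so the shares over all rows are not a like reference. Without control library 3, 19449 rows were tested and 0 were called. An unadjusted p under 0.05 was found for 960, of which 448 were higher and 512 lower in heat lung. 530 rows had an unadjusted p under 0.05 both with and without it, and 530 of these kept their sign. Both fits share every other library, so this agreement is not independent support. Over all rows, 4399 changed sign (23.0%). The number with an unadjusted p under 0.05 also moved when other libraries were left out, to 2509 without control library 1, 2912 without control library 2, 927 without heat library 2 and 946 without heat library 3, with 0 rows called each time.

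**Figure D2:**
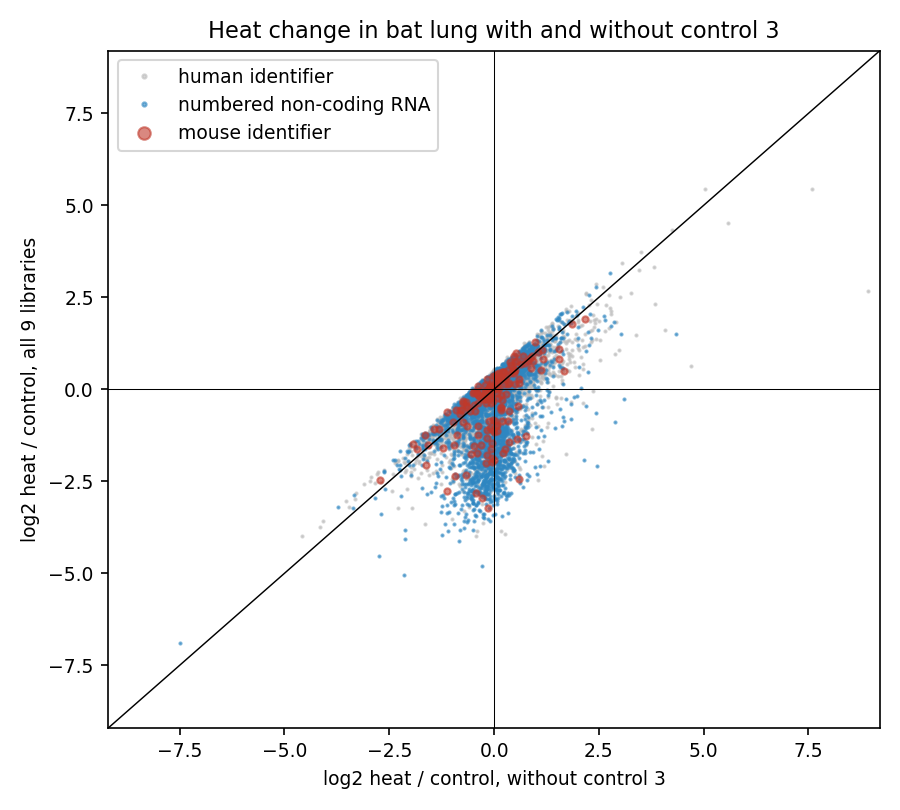
Log2 change of heat against control for each tested row from the fit without control library 3 (x axis) and from all 9 lung libraries (y axis), by kind of row; the diagonal marks equal values. Many non-coding RNA and mouse-identifier rows near 0 without control 3 lie well below 0 with it.

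The counts at an unadjusted p under 0.05 also split by kind of row. Among 14768 tested rows with human identifiers, 331 were higher and 601 lower in heat lung at an unadjusted p under 0.05, with a median log2 change of -0.01. Without control library 3 these were 325 higher and 379 lower, with a median of 0.00. Among 4018 numbered non-coding RNA rows, 109 were higher and 576 lower, with a median of -0.14. Without control library 3, the non-coding rows split into 108 higher and 107 lower, with a median of -0.01. Among 165 rows with mouse identifiers, 4 were higher and 20 lower, and without control library 3 there were 6 higher and 5 lower. Their median log2 change was -0.18 with it and -0.04 without it.

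**Figure D3:**
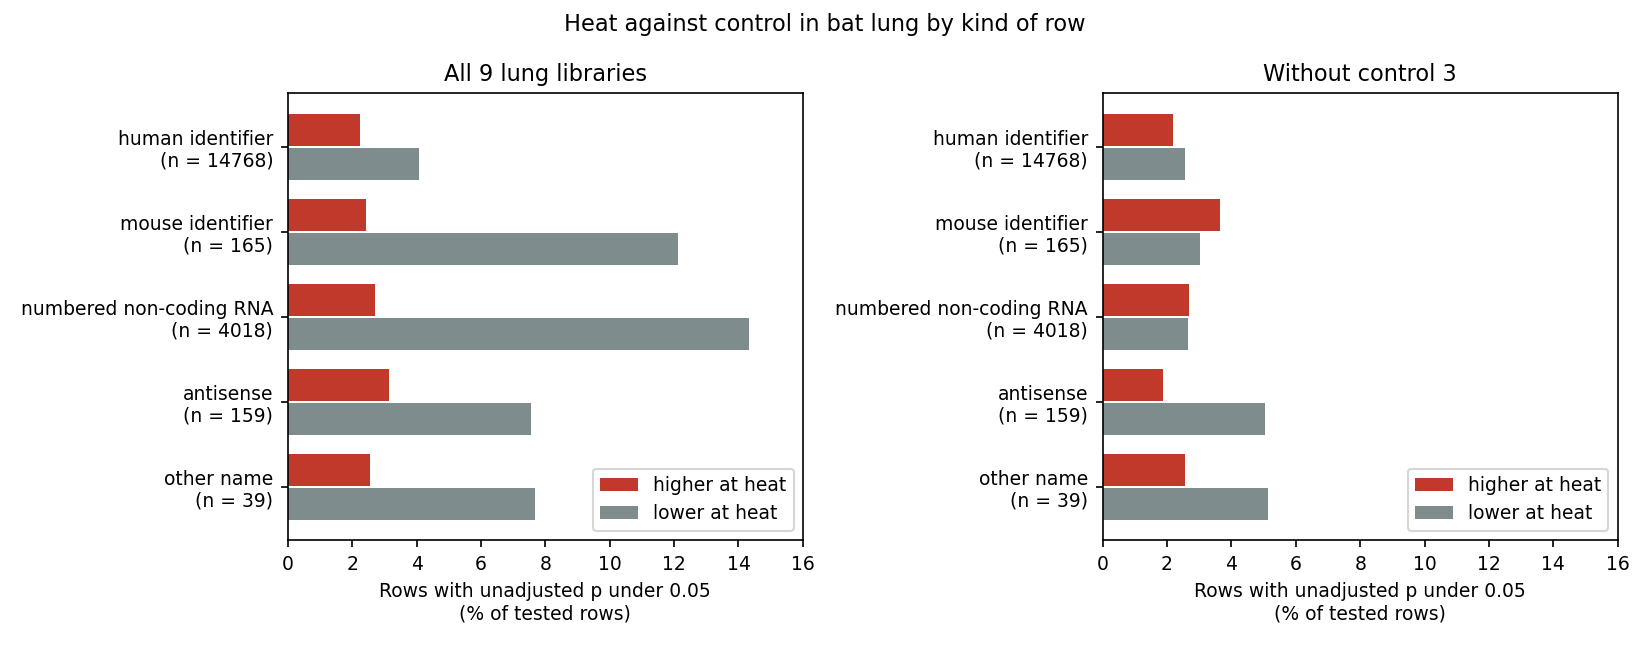
Share of tested rows with an unadjusted p under 0.05 that were higher (red) or lower (grey) in heat than in control lung, by kind of row, from all 9 lung libraries (left) and without control 3 (right). The large share of lower non-coding RNA rows, 576 of 4018, is not present without control 3, where 107 were lower and 108 higher.

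The antisense rows carry the name of a gene on the opposite strand. Of 159 tested, 5 were higher and 12 lower in heat lung at an unadjusted p under 0.05, and their median log2 change was 0.04. Without control library 3 there were 3 higher and 8 lower, and the median was -0.04. With all libraries, the sense row was also tested for 118 of them, and 85 of these pairs had the same sign. 8 pairs had an unadjusted p under 0.05 in both rows. The libraries were directional, but no source used here states the strand setting of the counting. Whether reads of a gene and of its antisense partner were kept apart is therefore uncertain.

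The row with the smallest p value by edgeR over the 9 lung libraries, ENSG00000174738, carried a human identifier. The rows described here and in the next paragraph were chosen by small p among human identifiers only. In the same fit ncRNA4953, described below, had a smaller p than either row of the next paragraph. ENSG00000174738 had 247, 254 and 325 CPM in heat lung, against 111, 106 and 151 CPM in control lung (here and below, CPM carry edgeR's TMM scaling over the lung libraries unless stated otherwise). All 3 heat libraries lay above all 3 control libraries, which was a condition of the choice. Heat and control means were 275 ± 43.3 and 123 ± 24.7 CPM (SD, n = 3 each). The log2 change was 1.16 ± 0.18 (SE), and 1.34 without control library 3. Recovery animals had 316, 236 and 292 CPM, with 1 of the 3 below all heat libraries and all above the control libraries. ENSG00000148158 had 103, 110 and 107 CPM in heat lung, against 69.9, 69.6 and 61.9 CPM in control lung, a log2 change of 0.67 ± 0.12. Neither was called by edgeR, at an adjusted p of 0.572 for each, and DESeq2 called both.

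Lower levels in heat lung were found at ENSG00000167434 and ENSG00000282757. ENSG00000167434 had 43.9, 48.2 and 46.7 CPM in heat lung, against 69.4, 68.2 and 85.9 CPM in control lung, a log2 change of -0.69 ± 0.13. ENSG00000282757 had 1.63, 1.29 and 0.695 CPM in heat lung, against 5.18, 6.54 and 22.6 CPM in control lung. Its log2 change of -3.23 ± 0.62 was -2.28 without control library 3, the highest of the 9 libraries. ENSG00000282757 averaged 6.33 CPM over the heat and control libraries and met the condition on level only through control library 3. Heat and control libraries did not overlap in either row, again a condition of the choice. EdgeR called neither (adjusted p = 0.572 for each), and DESeq2 called both.

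Among rows with a gene symbol that averaged 5 CPM or more and whose groups did not overlap, 3 were higher in heat lung, and none was called. At any level, the groups did not overlap in 9.70% of the 165 tested rows with mouse identifiers, 5 higher and 11 lower. The share over all rows tested was 10.5%, so such rows were no more frequent here. Akap17b, of the family of A-kinase anchoring proteins that tether protein kinase A, had 6.21, 8.21 and 8.71 CPM in heat lung, against 4.37, 4.47 and 4.77 CPM in control lung. Its means were 7.71 ± 1.32 and 4.54 ± 0.209 CPM (SD, n = 3 each), a log2 change of 0.77 ± 0.25, and 0.80 without control library 3. Cmah, the enzyme that hydroxylates a sialic acid of the cell surface, had 22.8, 20.2 and 17.3 CPM in heat lung, against 15.7, 14.5 and 14.5 CPM in control lung. The groups were close but separate, with a log2 change of 0.43 ± 0.17. Zfp184, a zinc finger gene, had 29.9, 31.2 and 40.1 CPM in heat lung, against 27.7, 29.1 and 15.9 CPM in control lung. Its log2 change of 0.47 ± 0.24 was 0.25 without control library 3, which was the lowest of the 9.

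Under the same conditions 5 rows with a symbol were lower in heat lung, again none called. Hist1h2af, a histone H2A gene, had 5.85, 6.53 and 7.80 CPM in heat lung, against 8.03, 18.1 and 32.3 CPM in control lung. The log2 change was -1.52 ± 0.46, and -0.96 without control library 3, its highest library. Plac8, a small cysteine-rich protein abundant in immune cells, had 3.62, 2.39 and 4.54 CPM in heat lung, against 9.503, 8.16 and 4.77 CPM in control lung. Here control library 3 was the lowest of the control libraries, and the log2 change was -1.09 ± 0.42 with it and -1.32 without it. In the bat tissues Plac8 had a median of 24.6 CPM in blood, 4.63 CPM in lung and 0.243 CPM in muscle (scaled to the library total). Whether the lung samples differed in the blood they held was not tested. 2700097O09Rik, a transcript with no role given here, had 5.37, 5.63 and 6.20 CPM in heat lung, against 6.50, 8.56 and 6.99 CPM in control lung, a log2 change of -0.36 ± 0.25.

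A pair of predicted transcripts completes these rows, both with their highest level in control library 3. Gm6034 had 67.3, 32.3 and 46.5 CPM in heat lung, against 126, 84.4 and 778 CPM in control lung. The difference was -2.76 ± 0.80 on the log2 scale, and -1.11 without control library 3. Gm26566 had 1.63, 1.49 and 1.01 CPM in heat lung, against 1.78, 1.92 and 26.2 CPM in control lung. On that scale it came to -2.83 ± 0.95, and -0.43 without control library 3. Gm26566 averaged 5.67 CPM over the heat and control libraries and met the condition on level only through control library 3. The same library was the highest of 9 in 20 of the 35 tested Gm-numbered transcripts, whose median log2 change was -0.57 with it and -0.04 without it. It was the highest in 17 of the 27 tested Rik transcripts, whose median was -0.99 with it and -0.11 without it.

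**Figure D4:**
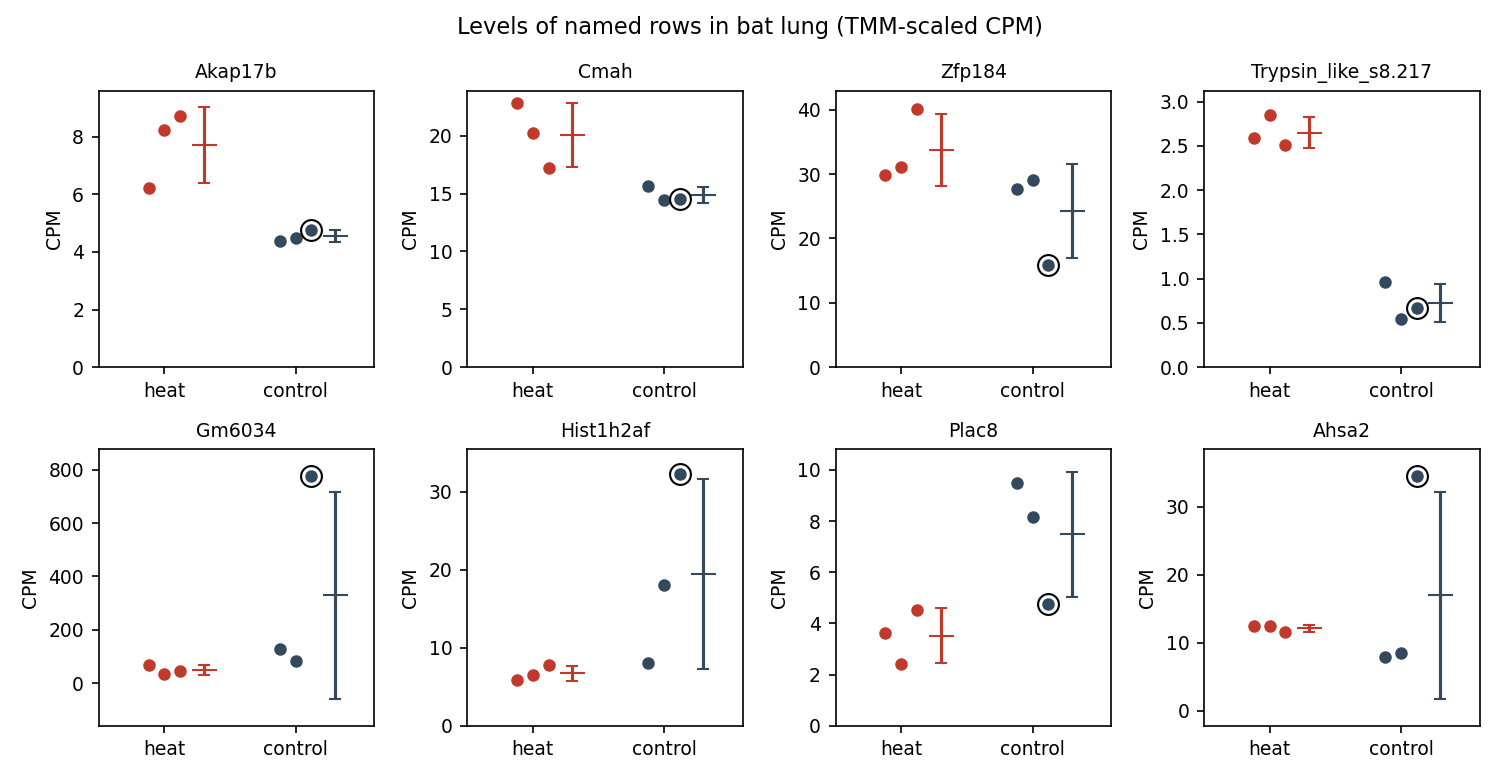
TMM-scaled CPM of 8 named rows in heat and control bat lung (points, libraries; bars, mean ± SD, n = 3; open circle, control 3). Akap17b, Cmah and Trypsin_like_s8.217 separate the groups with control 3 close to the other control libraries, while Gm6034, Hist1h2af and Ahsa2 have their highest level in control 3.

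The other rows with names were grouped by role. The groups, and the members named in them, were chosen outside the rule for named genes, and 0 of their rows were called. Rows with human identifiers could not be sorted by role, so any chaperone genes among them are outside these counts. Of 14 named rows for chaperones, heat shock factors and protein turnover, 3 were tested, namely Ahsa2, Fbxw17 and Afg3l1. Ahsa2, an activator of the ATPase of HSP90, had 12.4, 12.4 and 11.5 CPM in heat lung, against 7.88, 8.46 and 34.5 CPM in control lung. The 3 heat libraries lay above control libraries 1 and 2 and below control library 3, and the log2 change was -0.47 ± 0.50 with that library and 0.57 without it, with an adjusted p of 0.983 by edgeR in the second case. Recovery animals had 8.29, 8.73 and 6.31 CPM, below each heat library. Fbxw17, an F-box protein of the ubiquitin ligase type, had a log2 change of 0.28 ± 0.25, with overlapping groups. Afg3l1, a mitochondrial protease gene, was under 1.2 CPM in every heat and control library, with a log2 change of -0.32 ± 0.55 with control library 3 and -0.02 without it.

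Of 13 serine protease rows 6 were tested, and these had a positive log2 change, between 0.50 and 1.86. Their median was 0.85 with control library 3 and 0.84 without it, against -0.03 and 0.00 over all rows tested. Only 1 of the 6 had an unadjusted p under 0.05 by edgeR. The group was chosen with earlier results of these data known, so the shared sign is not a test of a heat change. Trypsin_like_s8.217, a row whose name refers to trypsin, had 2.59, 2.84 and 2.51 CPM in heat lung, against 0.966, 0.541 and 0.666 CPM in control lung. Its log2 change was 1.86 ± 0.55 at an adjusted p of 0.572 by edgeR, and recovery animals had 1.22, 0.354 and 0.574 CPM. Its neighbour by name, Trypsin_like_s8.216, had 2.77, 5.75 and 1.12 CPM in heat lung, against 2.74, 0.393 and 1.11 CPM in control lung, which overlap. Prss42, Prss44 and Prss43, proteases of the testis in mouse, had log2 changes of 0.69 ± 0.36, 0.50 ± 0.29 and 0.53 ± 0.42, each with overlapping groups. Prss29, a protease of the uterus in mouse, had a log2 change of 1.00 ± 0.74, also with overlapping groups. Rows with near-identical copies share reads in ways the counting may split, so these levels are uncertain.

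Immune rows took both signs. Of 31 innate and adaptive immune rows 5 were tested, 3 with a positive and 2 with a negative log2 change. Tlr13, a receptor for bacterial ribosomal RNA in mouse, had 9.17, 11.6 and 9.51 CPM in heat lung, against 12.7, 10.2 and 2.00 CPM in control lung. Heat against control came to 0.27 ± 0.50 on the log2 scale with control library 3 and to -0.18 without it. Of 25 T cell receptor segments 13 were tested, 7 positive and 6 negative, with a median log2 change of 0.06, and -0.21 without control library 3. The constant segment TRCG2_s11.277 had 4.52, 3.30 and 6.95 CPM in heat lung, against 5.64, 2.56 and 5.66 CPM in control lung.

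Enzymes that handle xenobiotics and lipids were near their control level or spread widely. Of 22 rows 13 were tested, 4 with a positive and 9 with a negative log2 change, with a median of -0.26, and -0.18 without control library 3. Aox2 had 376, 380 and 286 CPM in heat lung, against 278, 646 and 191 CPM in control lung, and Fmo6, a flavin monooxygenase, had 91.8, 133 and 68.9 CPM in heat lung, against 71.1, 88.1 and 73.4 CPM in control lung. Both overlapped, with log2 changes of -0.10 ± 0.38 and 0.33 ± 0.25, and of -0.41 and 0.30 without control library 3. Slc47a2, an exporter of organic cations, had 0.181, 0.582 and 0.321 CPM in heat lung, against 0.559, 1.67 and 2.44 CPM in control lung, a log2 change of -2.07 ± 0.71, and -1.62 without control library 3. Cyp2t4, a cytochrome P450, had 4.404, 4.397 and 4.43 CPM in heat lung, against 4.22, 3.39 and 36.8 CPM in control lung. With control library 3 the log2 change was -1.73 ± 0.78, and without it 0.21.

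At the named translation, vascular and energy rows the groups overlapped. EIF4G2_s4.922, named for a translation initiation factor, had 1109, 1193 and 1163 CPM in heat lung, against 1136, 1169 and 1032 CPM in control lung. Its log2 change was 0.05 ± 0.12, and 0.0031 without control library 3. KDR_s10.435 had 161, 137 and 240 CPM in heat lung, against 179, 142 and 155.04 CPM in control lung. The log2 change was 0.18 ± 0.20, with the highest and the lowest level both in heat libraries. Of 16 zinc finger rows 9 were tested, 5 positive and 4 negative, with a median log2 change of 0.04, and -0.05 without control library 3. Rbak, a repressor that binds the retinoblastoma protein, had 76.7, 83.5 and 85.6 CPM in heat lung, against 80.4, 89.7 and 68.4 CPM in control lung. Cox8b had 9.89, 4.20 and 5.72 CPM in heat lung, against 6.50, 6.15 and 26.5 CPM in control lung, and its log2 change was -0.97 ± 0.57 with control library 3 and 0.06 without it. The airway secretion row Bpifb9a had 1.39, 2.26 and 1.496 CPM in heat lung, against 0.305, 12.7 and 1.11 CPM in control lung, so that control library 2 alone was high. Of 366 rows for odorant, pheromone and taste receptors, 4 had counts enough to be tested, and 0 of them had an unadjusted p under 0.05.

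10 numbered non-coding RNA rows were chosen after their values were seen, for small p values, an average of at least 5 CPM and groups that did not overlap. EdgeR called none of them. ncRNA4953 had 10.5, 14.7 and 16.7 CPM in heat lung, against 3.76, 3.44 and 2.33 CPM in control lung. The difference was 2.12 ± 0.39 on the log2 scale, and 1.95 without control library 3. Recovery animals had 25.6, 12.9 and 9.75 CPM, all above the control libraries. ncRNA300 had 40.5, 43.7 and 42.2 CPM in heat lung, against 26.7, 19.96 and 18.4 CPM in control lung, a log2 change of 0.95 ± 0.18. DESeq2 called both of these rows.

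ncRNA10212 had 15.5, 21.98 and 21.3 CPM in heat lung, against 12.4, 9.74 and 10.3 CPM in control lung, a log2 change of 0.85 ± 0.20. Recovery animals had 9.51, 10.01 and 8.65 CPM, in or below the control range. ncRNA976 had 28.6, 28.0 and 27.6 CPM in heat lung, against 18.5, 19.6 and 18.5 CPM in control lung. The difference there was 0.57 ± 0.14 on the log2 scale. ncRNA3145 had 15.3, 17.1 and 29.9 CPM in heat lung, against 10.01, 5.16 and 8.77 CPM in control lung, a log2 change of 1.38 ± 0.33.

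Lower levels in heat lung were seen at 5 of the 10. ncRNA10058 had 43.1, 34.5 and 34.2 CPM in heat lung, against 64.9, 55.3 and 67.7 CPM in control lung, a log2 change of -0.75 ± 0.18. ncRNA9988 had 16.05, 17.005 and 10.4 CPM in heat lung, against 22.8, 33.8 and 22.6 CPM in control lung, a log2 change of -0.87 ± 0.24. In these rows control library 3 lay with the other control libraries. ncRNA7373 had 2.11, 0.905 and 1.01 CPM in heat lung, against 3.35, 2.41 and 53.2 CPM in control lung, so that its log2 change of -3.85 ± 1.09 was -1.10 without control library 3. That row averaged 10.5 CPM over the heat and control libraries and met the condition on level only through control library 3. ncRNA9170 had 4.46, 3.62 and 7.43 CPM in heat lung, against 9.40, 9.93 and 22.97 CPM in control lung, a log2 change of -1.44 ± 0.41 with control library 3 and -0.90 without it. For ncRNA7316 the log2 change was -0.87 ± 0.25, and -0.71 without control library 3.

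In the same fit, recovery lung differed from control lung in 9 called rows (0.047% of rows tested), of which 3 rose and 6 fell. It differed from heat lung in 24 called rows (0.125%), of which 3 rose and 21 fell. Each of these comparisons shares libraries with heat against control. None of the rows named above was among them. The counts of calls against control and against heat were 62 and 189 without control library 3, 0 and 1 without control library 1, and 0 and 10 without control library 2. They were 22 and 46 without heat library 1, 7 and 7 without heat library 2, 2 and 1 without heat library 3, and 0 and 0 without any 1 of the 3 recovery libraries.

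Whether the heat change of lung differed from that of muscle was tested in 1 model over 18 bat libraries. Of 19860 rows, 1 was called (0.00504%), a row with a human identifier and an adjusted p of 0.0135 by edgeR. It had 167, 150 and 211 CPM in heat lung, against 176, 146 and 104 CPM in control lung, and 0.212, 0.23 and 0.323 CPM in heat muscle, against 1.93, 1.4 and 3.2 CPM in control muscle. These CPM were scaled over the 18 libraries of this model and are not on the scale of the lung values above. The lung change was 0.31 and the muscle change -3.08 on the log2 scale, a difference of 3.40 ± 0.44 (SE). An unadjusted p under 0.05 was found for 1974 rows (9.94%). Heat against control alone called 0 rows in lung and 266 in muscle within this model. Without lung control library 3, the difference was called at 1 row, and whether this was the same row was not recorded.

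The heat change of bat lung was also set against that of mouse lung. Symbols shared by both tables once numbered 644, and 76 of these passed the filter in both species. Counts were scaled within each species' own table, so levels are not comparable across species. The difference of the changes was called for 5 symbols (6.58%) by edgeR. Ahsa2 had 248, 116 and 247 CPM in heat mouse lung, against 28.0, 41.1 and 29.5 CPM in control mouse lung. The log2 change was -0.46 in bat lung and 2.63 in mouse lung, a difference of -3.10 ± 0.61 with an adjusted p of 0.00494. The bat change turned positive without control library 3, and the difference was then -2.06 and was still called.

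Cmah had 35.2, 45.4 and 34.1 CPM in heat mouse lung, against 63.0, 52.2 and 59.7 CPM in control mouse lung. Its log2 change was 0.43 in bat lung and -0.61 in mouse lung, a difference of 1.04 ± 0.29. Zfp184 had 1.22, 2.05 and 1.35 CPM in heat mouse lung, against 2.82, 2.35 and 2.65 CPM in control mouse lung. Its log2 change was 0.47 in bat lung and -0.75 in mouse lung, a difference of 1.23 ± 0.34. Fbxw17 had 13.01, 14.7 and 9.68 CPM in heat mouse lung, against 21.2, 21.4 and 22.4 CPM in control mouse lung. Its log2 change was 0.28 in bat lung and -0.80 in mouse lung, a difference of 1.08 ± 0.32. The transcript 6330409D20Rik had 0.362, 0.841 and 0.481 CPM in heat bat lung, against 0.813, 0.983 and 6.88 CPM in control bat lung. In mouse lung it had 1.73, 2.24 and 1.73 CPM in heat, against 0.797, 1.17 and 0.965 CPM in control libraries. Its log2 change was -2.29 in bat lung and 0.95 in mouse lung. The difference of -3.25 ± 0.95 was -1.64 without bat control library 3, the only bat heat or control library above 1 CPM. These 4 symbols had an adjusted p of 0.0472 each by edgeR, and none of them was called without bat control library 3, at adjusted p values of 0.0715 to 0.212. Zfp184 was also not called without bat heat library 3, Cmah without heat library 1 or 2, 6330409D20Rik without heat library 1 or 3, and Fbxw17 without control library 1, heat library 2 or heat library 3. The number of symbols called was 12 without bat control library 1 or 2, 2 without control library 3 and 3 without heat library 3.

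**Figure D5:**
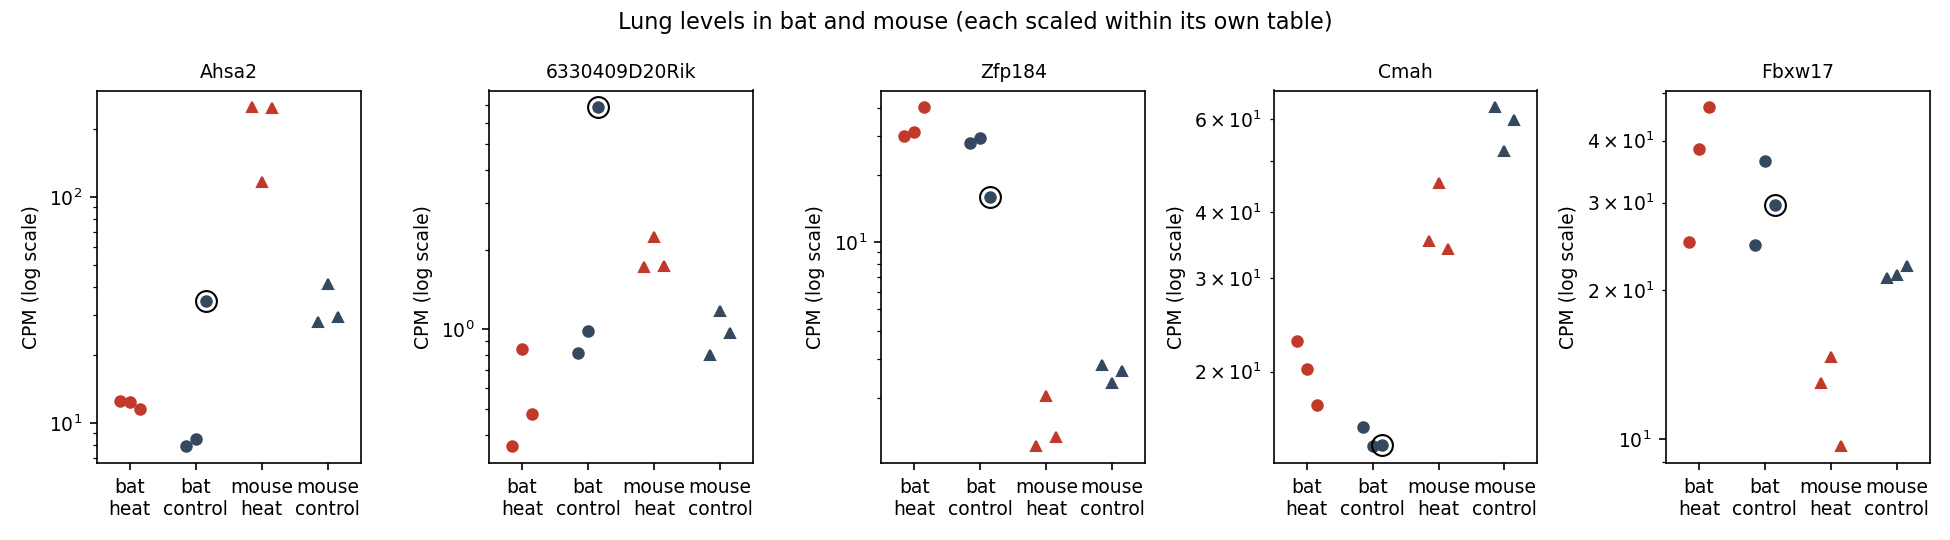
CPM on a log axis of the 5 symbols whose heat change differed between bat lung (circles) and mouse lung (triangles), in heat (red) and control (dark grey) libraries, n = 3 each; open circle, bat control 3. Ahsa2 is higher in each heat mouse library than in each control mouse library, while in bat lung the heat libraries lie between control 3 and the other control libraries.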

How the data were processed

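The deposited bat and mouse tables hold raw counts of reads per row, 1 column per library, with no normalization by the authors. TRIzol extracts of total RNA went into NEBNext directional libraries, per the labels' protocols. STAR 2.7 and featureCounts are the tools named in the submitters' processing notes, which list the mouse build GRCm39 for the bat samples too. The sources used here name neither the bat assembly and its annotation nor the strand setting, so no coordinates or sequences are printed.

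Counts of the 9 bat lung libraries were fitted with edgeR 4.0.16 (limma 3.58.1, R 4.3.3): filterByExpr (minimum count 10, minimum total 15), TMM scaling and the robust quasi-likelihood test with Benjamini-Hochberg adjustment over all rows tested. A row was called at an adjusted p under 0.05. The 3 groups shared 1 estimate of the spread, with 6 residual degrees of freedom, and a standard error is the log2 change over the root of its F value. DESeq2 1.42.0 and limma-voom were alternatives. The heat changes of lung and muscle, and of bat and mouse lung, were compared in joint fits; bat rows were paired with mouse rows by symbols of a mouse reference annotation. The edgeR fits of heat against control in lung and of lung minus muscle were run on simulated counts, with no library that stood apart as control library 3 did. The bat and mouse fit, DESeq2 and limma-voom were not run on simulated counts. No 2 libraries of a group were copies of each other.

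Genes were named by rule: up to 10 per direction with a symbol, at least 5 CPM on average over the 6 heat and control libraries and no overlap, by smallest p where none was called; list members; and up to 2 human identifiers per direction. The human identifiers met the same conditions on level and overlap. Members, lists and roles were chosen with earlier results of these data known. Lists were described by counts, with no test.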

Additional observations from a re-analysis of the deposited data

Results flagged for a closer look

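The heat change differed between bat lung and mouse lung by a test of the difference itself at 5 symbols. The bat log2 change minus the mouse log2 change was -3.10 at Ahsa2, -3.25 at 6330409D20Rik, 1.23 at Zfp184, 1.04 at Cmah and 1.08 at Fbxw17, with adjusted p values of 0.00494 for Ahsa2 and 0.0472 for each of the others by edgeR. Without bat control library 3 the call at Ahsa2 held, at a difference of -2.06, and those at the other 4 were lost, with adjusted p values of 0.0715 to 0.212 by edgeR. With the replicate number as a block, 1 of the 5 was called, Ahsa2. The 3 with a positive value had a positive change in bat lung and a negative one in mouse lung. The heat change also differed between bat lung and bat muscle at 1 row with a human identifier, where the lung change minus the muscle change was 3.40 on the log2 scale, with an adjusted p of 0.0135 by edgeR. The lung change of that row was 0.31, with overlapping groups. Its muscle change was -3.08, at low levels of 0.212 to 3.2 CPM in the heat and control muscle libraries.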

How the results depend on the processing

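No row was called between heat and control lung under any edgeR or limma setting, with 1 library left out included. DESeq2 called 18 rows, and 35 after dropping control library 3, an alternative chosen after seeing the data. The count at an unadjusted p under 0.05 was 988 with limma-voom, 944 with heat and control libraries only, 774 with the 5 of these left after dropping control library 3 (also chosen after seeing the data), 1107 with DESeq2 after dropping it, and 927 to 2912 with 1 library left out. Calls of recovery against control numbered 950 with DESeq2, 793 with DESeq2 after dropping control library 3, 31 with limma-voom, 18 with no filter on low counts, 14 after thinning to the shallowest library, and 0 to 62 with 1 library left out. Against heat they numbered 425, 1284 and 229 with the first 3 of these settings and 0 to 189 with 1 library left out. The bat minus mouse difference was called at 2 symbols without the recovery libraries and at 2 to 12 with 1 library left out. Ahsa2 changed sign with limma-voom (0.46), without control library 3 (0.57), with the 5 libraries (0.57) and with DESeq2 after dropping that library (0.58), and 1 library left out moved it between -0.81 and 0.57. KDR_s10.435 lay between -0.076 and 0.36 with 1 library left out, negative only without heat library 3. The cause was not tested beyond the libraries left out.

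Same-numbered heat and control libraries correlated at 0.02, 0.12 and 0.08 in their deviations from the group means. For heat and recovery the values were -0.01, -0.04 and 0.13, and for recovery and control 0.004, 0.09 and 0.07. Correlations of libraries with different numbers were not computed, so these values cannot tell whether replicate numbers pair the samples. With the replicate number as a block, 0 rows were called between heat and control, 1097 had an unadjusted p under 0.05, 0 were called for recovery against control and 0 against heat, 3 for lung minus muscle and 1, Ahsa2, for bat minus mouse. With 3 libraries a group, the shallowest at 9287883 counts, a missed call does not show an equal level.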
